A study of Arabidopsis thaliana with 6 samples.

Results

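Of the 1954 regions in the list called for p35S:LFY, 853 (43.7%, 95% interval 41.4 to 45.9) had their midpoint between the start and the end of a protein-coding gene, and these in-gene regions are described here. They lay in 811 of 27444 protein-coding genes on the 5 chromosomes, which is 2.96% of genes. Chromatin immunoprecipitation sequencing (ChIP-Seq) had been run on whole 15-day-old Arabidopsis thaliana seedlings, roots included, of 3 genotypes with 2 replicates each, using an antibody against the C-terminal, DNA-binding part of LFY. Line CA26-15 was the p35S:LFY genotype. Line CA29-17 was p35S:LFYTERE, in which LFY carries the changes T75E and R112E, and non-transgenic Col-0 served as the control. The cDNA of both transgenes was driven by the constitutive 35S promoter, each transgene was represented by 1 line, and the plants grew untreated under long days, so the bound regions are those of LFY expressed outside its usual tissue. A list of regions called against Col-0 was deposited for each transgenic genotype, with the replicates fused, so no value below has a replicate spread and no difference could be tested across replicates.

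LFY is a plant transcription factor that, in flowering plants, turns on the genes of floral meristem and floral organ identity. It binds DNA as a dimer through its C-terminal domain, and its N-terminal SAM domain lets dimers join into larger assemblies. The TERE changes are in that SAM domain and impair oligomerization. The coverage fold reduction (CFR) of a region is the ratio of its p35S:LFY coverage to its p35S:LFYTERE coverage, so a CFR of 10 means that coverage was 10 times as high with LFY as with LFYTERE. The rank is the authors' order of the regions in a list, 1 being the best. Gene ends are the outer limits of the annotated gene, which take in the untranslated regions. The gene table holds no strand and no exons, so the distance of a region is given to the nearer of the gene's ends, and whether a region was exonic or intronic is not known here. Intervals are exact binomial 95% intervals for shares and order-statistic 95% intervals for medians. They cover the sampling of regions only, and neighbouring regions are not independent of each other.

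In-gene regions crowded at the ends of genes. The median distance from a region's midpoint to the nearest gene end was 282 bp (quartiles 115 to 618.5 bp, range 0.5 to 3575 bp). A total of 594 regions (69.6%) lay within 500 bp of an end, and 100 (11.7%) lay over 1000 bp from both. Measured along the gene, 364 regions (42.7%, 39.3 to 46.1) lay in the outer 10% of the gene at one end or the other, where an even spread would put 20%. The next 10% inwards at each end held 20.4% of regions, followed by 13.4%, 11.8% and, around the middle of the gene, 11.7%. Many regions straddled the boundary, since 335 (39.3%) reached past an end of their gene. Of the 520 regions that lay wholly inside a gene, 2 of them inside a longer gene that overlaps the assigned one, 13.5% had their midpoint in the outer 10% at either end. A region of the median width of 396 bp can hardly lie wholly inside a gene when its midpoint is that close to an end.

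Per length of DNA available at each distance, region midpoints were densest at the ends of genes and thinned out inwards. There were 35.6 midpoints per Mb in the first 100 bp inside a gene end, 27.9 at 100 to 200 bp, 13.4 at 400 to 500 bp, 6.72 at 750 to 1000 bp and 1.71 at 2000 to 3000 bp. Just outside genes the density was 36.5 per Mb in the first 100 bp, and it was still 24.3 per Mb at 1000 to 1500 bp. The same band inside genes, 1000 to 1500 bp from the nearest end, held 6.69 per Mb. Gene interiors 500 bp or more from both ends thus held 6.63 midpoints per Mb, against 23.5 per Mb in the parts of genes under 500 bp from an end. In all, genes took up 54.1% of the base pairs and held 13.2 midpoints per Mb, against 20.1 per Mb outside genes.

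**Figure D1:**
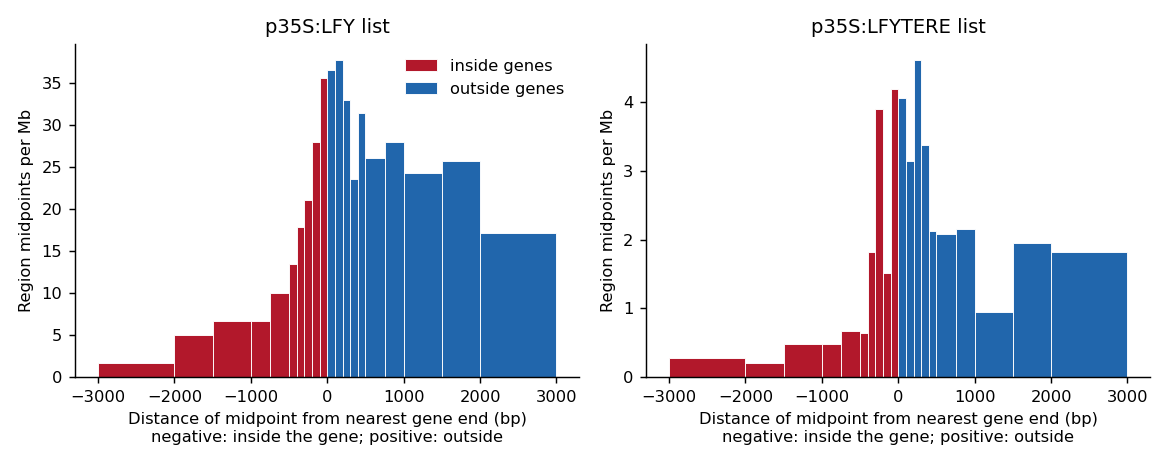
Region midpoints per Mb of available DNA (vertical axes) by distance to the nearest gene end in bp (horizontal axes, negative inside genes in red and positive outside genes in blue), for the p35S:LFY list on the left and the p35S:LFYTERE list on the right; each bar is 1 distance class and the vertical scales differ. In the p35S:LFY list the density just inside gene ends (35.6 per Mb) is close to that just outside (36.5 per Mb), and it is 6.69 per Mb at 1000 to 1500 bp inside genes against 24.3 per Mb at the same distance outside.

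The regions farthest from any gene end were in long genes. The deepest lay 3575 bp from both ends of AT1G71710, a gene of 7480 bp (chr1:26977276-26977666 in TAIR10, rank 1253, CFR 9.71). The next was in APE1, named for acclimation of photosynthesis to the environment, at 2824.5 bp (CFR 12.2). It was followed by AT1G67900 at 2394.5 bp (CFR 2.71, the only one of these 5 also called in p35S:LFYTERE), AT5G21105 at 2346.5 bp (CFR 5.35) and CSLA02, a cellulose synthase-like glucomannan synthase, at 2306.5 bp (CFR 4.48). None of the 5 ranked better than 991. At the other extreme, the 90 regions with a midpoint up to 50 bp inside a gene had a median CFR of 5.77 (range 2.33 to 38.7). Of these, 11 were also called in p35S:LFYTERE. The 74 with a midpoint up to 50 bp outside had a median CFR of 6.72 (range 1.82 to 59.4), and 8 were called there. These values describe both sides of the line that decides membership.

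Genes with an in-gene region were longer than genes in general. Their median length was 2404 bp (2296 to 2500, n = 811), against 2078 bp (2062 to 2093) for all 27444 genes. The share of genes with a region was 0.729% (0.446 to 1.12) in the shortest of 10 equal classes of gene length and 4.15% (3.44 to 4.97) in class 9, with 3.39% (2.74 to 4.13) in the longest. Counted per length of gene, the order was different. Regions were densest in class 3, genes of 1146 to 1489 bp, with 21.8 per Mb of gene, and sparsest in the longest class, with 6.09 per Mb, against 13.0 per Mb over all genes.

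**Figure D2:**
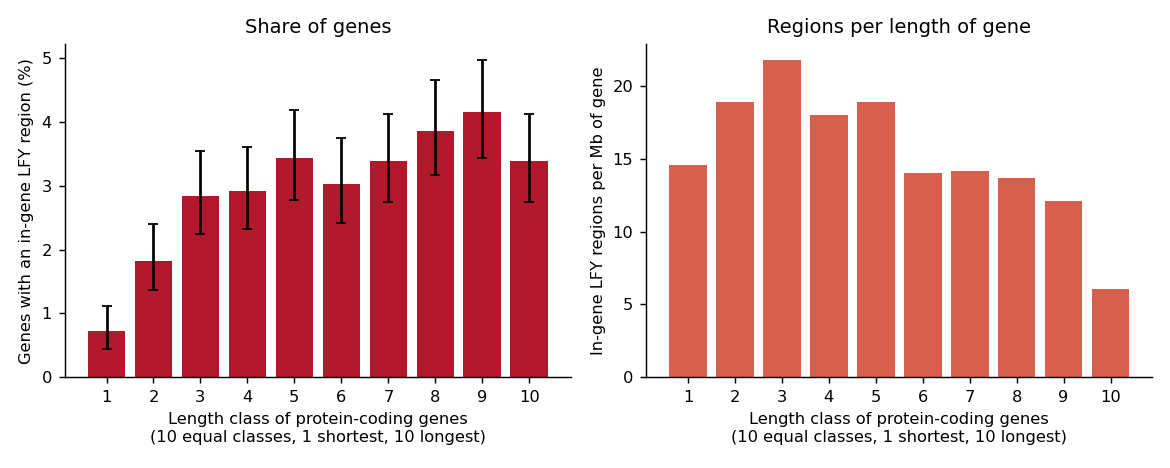
Percentage of protein-coding genes that hold a p35S:LFY region (left, with exact binomial 95% intervals) and in-gene regions per Mb of gene (right), by class of gene length (1 shortest, 10 longest). The share with a region is 0.729% in class 1 and 4.15% in class 9, whereas the density per Mb is highest in class 3 (21.8) and lowest in class 10 (6.09).

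CFR was lower in genes than outside them. The median CFR of the 853 in-gene regions was 7.01 (6.61 to 7.28, quartiles 4.52 to 11.6), against 8.04 (7.47 to 8.65) for the 1101 regions outside genes. CFR also differed with the distance outside: the 751 regions within 1 kb of a gene had a median of 7.36 (6.85 to 7.87), an interval that overlaps that of in-gene regions, and the 350 regions beyond 1 kb one of 9.82 (9.08 to 11). A CFR above 10 was reached by 268 in-gene regions (31.4%, 28.3 to 34.7) and 422 regions outside genes (38.3%, 35.4 to 41.3), the share in the whole list being 35.3%. A CFR above 20 was reached by 84 in-gene regions (9.85%, 7.93 to 12.0) and 179 regions outside (16.3%, 14.1 to 18.6), against 13.5% of the whole list. The in-gene median was the lower one in each of 4 equal classes of the list by rank, though the intervals overlapped in all 4. It was also lower in 3 of the 4 classes by width, but among the narrowest regions it was 8.72 (7.48 to 10.9, n = 140) in genes and 8.24 (7.37 to 9.25, n = 349) outside. By width, the intervals were apart only at 308 to 365 bp, with 7.01 (5.93 to 7.51) in genes and 9.35 (8.11 to 10.8) outside. When only regions lying wholly inside a gene were taken, the medians were 7.12 (6.71 to 7.59) in genes and 7.52 for all others, and the second value falls within the interval of the first.

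**Figure D3:**
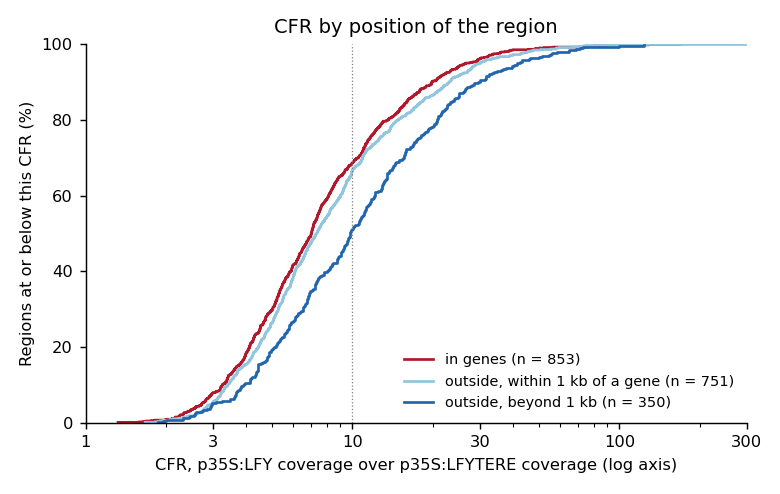
Percentage of regions (vertical axis) at or below each CFR (horizontal log axis, cut at 300) for regions in genes (red), outside genes but within 1 kb of one (light blue) and beyond 1 kb (dark blue); the dotted line marks a CFR of 10. The red and light blue curves run close together, with medians of 7.01 and 7.36, and the dark blue curve lies to their right with a median of 9.82.

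In-gene regions were wider than regions outside genes at a similar rank. The median width was 396 bp (387 to 403) in genes and 343 bp (336 to 350) outside, and the median rank was 973 (898 to 1039) in genes and 982 (928 to 1040) outside. In the last of the 4 rank classes the widths were 336 bp (326 to 349) in genes and 291 bp (285 to 299) outside, and in the best-ranked class 473 bp (455 to 490) and 455 bp (434 to 468), where the intervals overlap. Of the 100 best-ranked regions, 48 were in genes. From the best to the last rank class, 48.1% (43.6 to 52.6), 39.5% (35.2 to 44.0), 42.8% (38.4 to 47.4) and 44.2% (39.7 to 48.7) of regions were in genes. By chromosome, the share was between 41.8% and 42.7% on chromosomes 1 to 4 and 48.6% on chromosome 5.

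Among in-gene regions the median CFR was highest beyond 1000 bp from gene ends and in the longest genes, by small margins. A distance over 1000 bp needs a long gene, so the 2 splits are tied. By position relative to gene length there was no steady order, with 6.63, 7.55, 6.53, 6.81 and 7.13 from the ends to the middle. By distance from the gene end, the median CFR was 5.77 (5.11 to 6.86) within 50 bp and 8.77 (7.12 to 9.89) beyond 1000 bp. The 4 classes between had values between 6.35 and 7.43. Their intervals all overlapped that beyond 1000 bp, such as 7.43 (6.90 to 8.12) at 100 to 250 bp. Over 5 equal classes of in-gene regions, from the shortest genes to the longest, the median CFR was 6.04 (5.16 to 7.06), 6.5, 7.12, 7.12 and 7.89 (7.26 to 9.06). Over the 853 regions, which come from 1 list and share their libraries, Spearman's rho of CFR was 0.14 with gene length, 0.08 with distance to the gene end, -0.15 with width and -0.11 with rank. These are weak relations and are given as a description. Rank and width went together more closely (rho -0.52), the better-ranked regions being wider.

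The best-ranked region of the whole list was in a gene. It was 845 bp wide (chr2:9878385-9879229), with a CFR of 21.5. Its midpoint lay in CYP81D7, a cytochrome P450 gene, 200 bp from a gene end, and the region reached past that end. The other 9 best-ranked in-gene regions had ranks of 7 to 21. They lay in AT3G53950 (CFR 3.38), in SMXL5 (AT5G57130), a member of the SMAX1-like family (chr5:23147214-23147814, CFR 25.3), and in TCL2, whose product is a small MYB protein that represses leaf hair formation (chr2:12965407-12965974, CFR 29.3). The next was in MYB12, an activator of flavonol synthesis genes (chr2:19478907-19479521, CFR 14.3). The rest lay in AT2G41000 (18.2), AT2G04170 (30.1), EMB1290, which is also named the receptor-like kinase CRK17 (8.79), AT5G52070 (29.6) and AT5G09460 (7.04). Of these 10 regions, 7 had a CFR above 10, against 31.4% of all in-gene regions, and the one in AT3G53950 was the only one also called in p35S:LFYTERE. Their CFR values spanned 3.38 to 30.1. In the whole list, the median CFR of in-gene regions was 7.63 (6.86 to 8.69) and 7.39 (6.32 to 8.17) in the 2 better-ranked of the 4 rank classes, and 6.45 (5.59 to 7.11) and 6.63 (5.95 to 7.28) in the other 2.

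The 10 highest CFR values belonged to regions with ranks of 210 to 1831. NIP1, named as NEP-interacting protein 1 and distinct from the aquaporins of that name, held the highest value and the lowest of the 10. Its regions at chr2:7709749-7710042 and chr2:7710092-7710318, 49 bp apart, had CFR values of 169.7 and 50.1 at ranks 1312 and 1831. BBX31, a B-box zinc finger protein gene, had a CFR of 129.2 (chr3:7708897-7709179, rank 587). The beta-glucosidase gene BGLU24 had 89.2 (rank 210), and SEP4, one of the SEPALLATA MADS-box genes needed for floral organ identity, had 84.3 (chr2:1130009-1130358, rank 621). They were followed by TTR1, also named WRKY16 (80.3), AT1G79420 (79.6), CM2, a chorismate mutase of aromatic amino acid synthesis (rank 232, 76.2), AT5G56460 (56.2) and the cytochrome P450 gene CYP705A15 (52.2). All 10 regions lay wholly inside their gene, were 227 to 444 bp wide and were not called in p35S:LFYTERE. The missing calls follow from picking the highest CFR, since no in-gene region called there had a CFR above 7.05. A large ratio rests on a low p35S:LFYTERE coverage, and the coverage itself is not in the lists used here, so these values have no error.

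At the low end, in the 10 regions of lowest CFR, the coverage with LFY was 1.32 to 2.11 times that with LFYTERE. NF-YC4, which encodes a subunit of the trimeric CCAAT-binding factor NF-Y, had the lowest CFR, 1.32 (chr5:25416705-25417208, rank 967), and its region was ranked 1 in the p35S:LFYTERE list. PYL5, an abscisic acid receptor gene, had 1.58 (chr5:1609271-1609918, rank 1186, rank 3 in p35S:LFYTERE). NDL3 (1.65), the calcium-dependent protein kinase gene CPK9 (1.68), AT3G25880 (1.76), AT1G63290 (1.81), AT3G58720 (1.99), AT4G00305 (2.01), the RING-finger gene RHA1A (2.10) and the CDP-diacylglycerol synthase gene CDS5 (2.11) completed the 10 lowest. Their ranks in the p35S:LFY list were 240 to 1440. All 10 were also called in p35S:LFYTERE, against 9.38% of all in-gene regions. The calls follow from picking the lowest CFR, since no in-gene region without a call there had a CFR below 2.54.

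**Figure D4:**
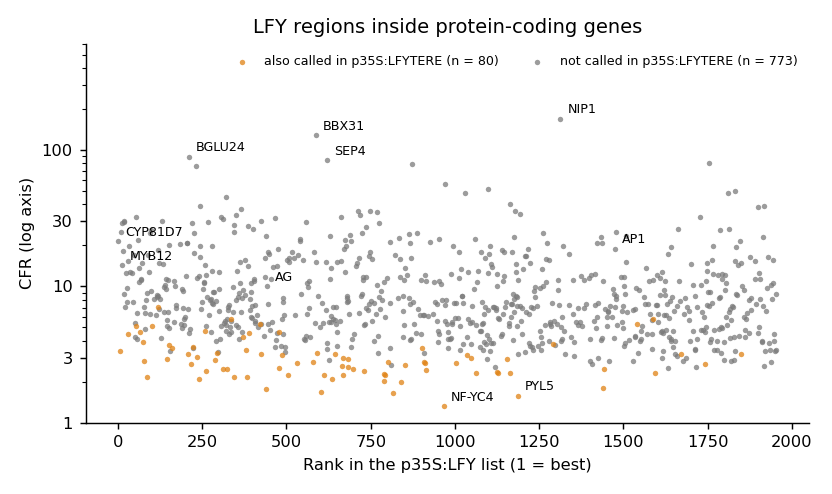
CFR (vertical log axis) against rank in the p35S:LFY list (horizontal axis, 1 best) for the 853 in-gene regions, with the 80 also called in p35S:LFYTERE in orange and the other 773 in grey; some genes named in the text are marked. The orange points lie between 1.32 and 7.05, and the highest CFR values, NIP1 (169.7) and BBX31 (129.2), are at ranks 1312 and 587.

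Of the in-gene regions, 80 (9.38%, 7.51 to 11.5) overlapped a p35S:LFYTERE region by at least 1 bp, against 93 regions outside genes (8.45%, 6.87 to 10.2) and 8.85% of the whole list. The intervals of both shares overlap, so no difference between in-gene and other regions was detectable. Those 80 had a CFR of 2.77 at the median (2.52 to 3.06, range 1.32 to 7.05) and the 773 others 7.40 (7.11 to 7.80, range 2.54 to 169.7). CFR and a call in p35S:LFYTERE both depend on the p35S:LFYTERE coverage, so this split is a description. The shared regions ranked better (median 605.5 against 1023). Read depth is not in the lists used here, and its part in which regions were called in p35S:LFYTERE was not tested.

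Shared regions were in shorter genes. Of the 5 classes, that with the shortest genes, 147 to 1599 bp, had 28 of 171 regions (16.4%, 11.2 to 22.8) also called in p35S:LFYTERE, against 7 of 171 (4.09%, 1.66 to 8.25) in the longest, 3561 to 14322 bp. The 3 classes between had 7.65%, 10.5% and 8.24%. Within the better-ranked 50% of the list the shares at both extremes were 22.6% (21 of 93) in the shortest genes and 4.00% (3 of 75) in the longest. In the rest of the list they were 8.97% (7 of 78) and 4.17% (4 of 96). By position relative to gene length, the share lay between 9% and 9.90% in the 5 classes. By distance in bp, it was 12.2% (6.26 to 20.8) within 50 bp of a gene end, 11.2%, 10.2% and 10% in the next classes up to 500 bp, 5.66% (2.62 to 10.5) at 500 to 1000 bp and 8% (3.52 to 15.2) beyond, with overlapping intervals.

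Seen from the p35S:LFYTERE list, 80 of 176 regions (45.5%, 37.9 to 53.1) were in genes, against 43.7% of the p35S:LFY list. They lay in 78 genes, and 76 overlapped a p35S:LFY region, where 95.5% of the whole p35S:LFYTERE list did. Most of these are the same overlaps as those of the shared in-gene regions above, seen from the other list. The 2 counts are therefore tied to each other, although the 2 sets are not identical. Their median CFR was 2.59 (2.29 to 2.75), against 2.92 (2.75 to 3.10) for the 96 regions outside genes. Midpoint densities of this list did not fall steadily from gene ends. Outside genes they were 4.06 per Mb in the first 100 bp (17 regions) and 4.61 at 200 to 300 bp (14). Inside genes they were 4.19 per Mb in the first 100 bp (22 regions) and 1.52 at 100 to 200 bp (8). At 200 to 300 bp inside the density was 3.89 (20 regions), and at 500 to 750 bp it was 0.67 (7 regions). The 4 in-gene regions of this list that overlapped no p35S:LFY region were in LFY itself and in AT2G33830. Those in LFY had CFR values of 0.654, 1.06 and 0.729. The one in AT2G33830, the dormancy-associated gene DRM2, had 0.607. LFY is also the gene from which the cDNA of both transgenes comes, and the part of transgene DNA in these 3 regions was not tested.

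Most genes with in-gene regions had 1 (770 genes), 40 had 2 and 1 had 3. The 83 regions of these 41 genes had a median CFR of 9.90, against 6.82 for regions alone in their gene, and the genes were longer (median 2970 bp against 2356.5 bp). Neighbouring regions of a gene were separated by a median gap of 367 bp between their edges (range 0 to 3204 bp). Of the 42 gaps, 11 were 200 bp or less, so some of these regions may be parts of 1 bound stretch. With neighbours within 200 bp counted as 1 region, 30 genes had 2 or more.

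Within these genes, CFR differed between regions by a median factor of 1.63 (range 1.04 to 23.2), and by 2 or more in 11 genes. The better-ranked region had the lower CFR in 22 of the 40 genes with 2 regions. The gene with 3 regions was AT3G05220, with CFR values of 5.08 (rank 333), 3.20 (rank 1671) and 3.20 (rank 1850); the last 2 overlapped the same p35S:LFYTERE region, ranked 2 in its list. AT3G53950 paired its shared region of rank 7 and CFR 3.38 with one of rank 1068 and CFR 13.0 that was not called in p35S:LFYTERE. AT1G20490 had the same arrangement, with a shared region of CFR 2.17 (chr1:7098444-7098947, rank 85) and another of CFR 23.3 (chr1:7097543-7097831, rank 630). In MYB12 the regions had similar values, 14.3 and 11.7, as in HAI1, a protein phosphatase gene of abscisic acid signalling, with 5.42 and 4.52. ORP2A, an oxysterol-binding protein gene, had 12.8 and 4.80, CYP71B3 had 32.1 and 15.7, and the cyclin gene CYCA2;4 had 7.97 and 11.2. AT1G79630 had 9.22 and 10.3, AT1G28610 had 8.49 and 15.0, and AT5G46390 had 14.9 and 8.43.

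The widest ratio was in AT1G79420, where regions 258 bp apart had CFR values of 79.6 (rank 874) and 3.43 (rank 1952). CYCJ18, a cyclin gene picked out after its values were seen, had 6.81 and 48.5 in regions 2422 bp apart. Of the 83 regions in the 41 genes, 8 were called in p35S:LFYTERE, close to the 9.38% of all in-gene regions. By gene, 35 had no region called there and 5 had some. In 1 gene, RBL12, which encodes a mitochondrial rhomboid-like protease, both were called (5.29 and 5.77) and overlapped the same p35S:LFYTERE region. The regions of PERK15, a receptor-like kinase gene, abutted with no gap and had CFR values of 5.92 and 11.4. RBL12 and PERK15 were also picked after their values were seen.

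**Figure D5:**
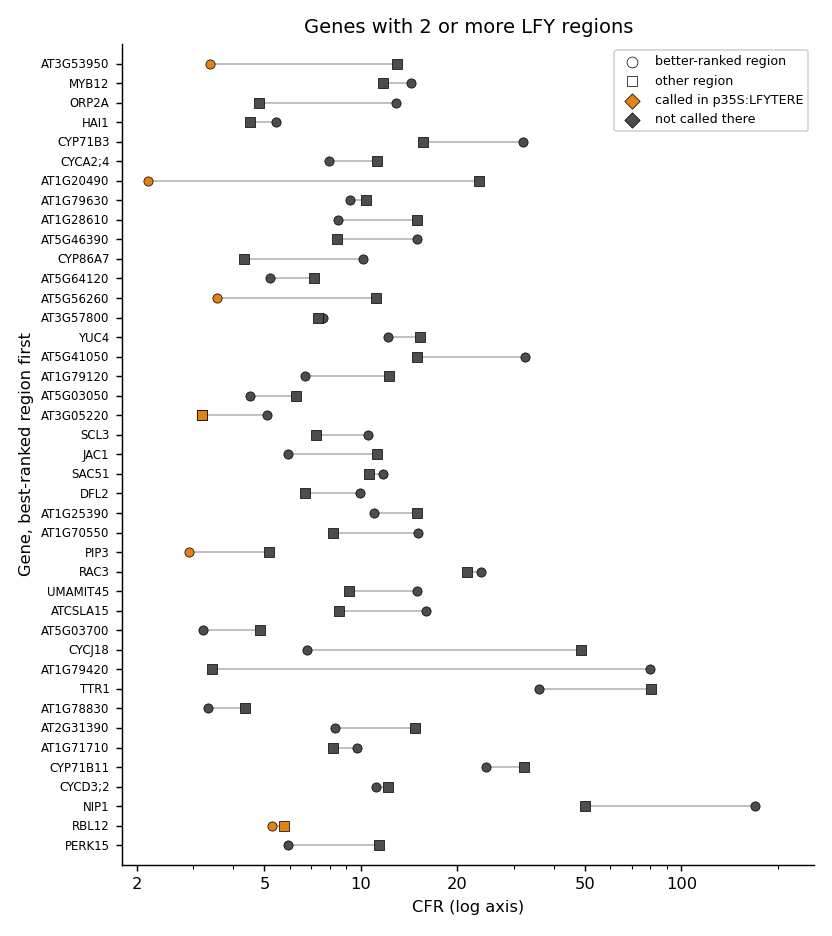
CFR (horizontal log axis) of every region in the 41 genes with 2 or more regions, from the gene with the best-ranked region at the top; circles are the better-ranked region of a gene, squares the others, and orange marks regions also called in p35S:LFYTERE. The 2 regions of AT1G79420 are the farthest apart (79.6 and 3.43), and in AT3G53950, AT1G20490, AT5G56260 and PIP3 only the better-ranked region is called in p35S:LFYTERE.

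Gene groups by symbol were then read against the 2.96% of all protein-coding genes with an in-gene region. No group was tested, and the groups differ in gene length. Of the transcription factors, the NAC family stood highest, with 11 of 106 genes (10.4%). Its regions had CFR values of 4.11 to 25.1 (median 9.70), and 5 of the 11 were above 10, against 31.4% of all in-gene regions. In p35S:LFYTERE 0 of 11 were called, against 9.38% of all in-gene regions, a gap too small to establish with these 11 regions. They included RD26, a factor of the drought and abscisic acid response (rank 26, CFR 9.70), NAC014 (rank 62, 13.7), NAC057 (rank 345, 25.1) and ORS1, a positive regulator of leaf senescence (AT3G29035, rank 399, 7.15). The other 7 regions, with ranks of 507 to 1904, had CFR values of 4.11 to 20.9.

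The MADS-box family had 4 of 103 genes (3.88%), and all 4 of its regions had a CFR above 10. AG, the C-class floral organ identity gene, had 10.1 (rank 443) and SEP4 had 84.3. SHP2, which acts in carpel and fruit development, had 19.8 (rank 676). The floral meristem identity gene AP1 had 18.9 (rank 1475), in a region 1313.5 bp from the nearest gene end. Any region outside these genes is not covered here. The median was 19.3 against 7.01 over all in-gene regions, of which 31.4% had a CFR above 10. In p35S:LFYTERE 0 of 4 were called, where the share of all in-gene regions was 9.38%, so a group of 4 regions shows nothing there.

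The MYB family had 5 of 133 genes (3.76%) with 6 regions, 3 of the genes being the flavonol regulators MYB12, MYB111 (rank 123, CFR 6.86) and MYB11 (rank 144, CFR 2.93, also called in p35S:LFYTERE). MYB37, an axillary meristem regulator also known as RAX1, had a CFR of 5.80 (rank 196). Homeodomain genes had 4 of 110 (3.64%), among them HAT3, an HD-ZIP factor of leaf polarity (rank 32, CFR 19.7), PRS, the WUSCHEL-related WOX3 (rank 77, 7.07), HB27 (3.62) and KNAT3 (4.25). The bHLH family had 3 of 74 (4.05%), PRE1 (6.62) and the jasmonate response factors MYC3 (9.73) and MYC2 (2.82). The bZIP family had 1 of 39 (2.56%), FD, the partner of the florigen FT in flowering (rank 355, CFR 5.04). The ERF and DREB family had 3 of 75 (4.00%), all with a CFR under 10, led by ERF2 (rank 117, 8.41). The WRKY family had 2 of 71 (2.82%), with TTR1 at 35.8 and 80.3 and WRKY7 at 3.41. B-box genes had 2 of 30 (6.67%), BBX31 (129.2) and BBX15 (2.59, also called in p35S:LFYTERE). TCP genes had 2 of 22 (9.09%), TCP19 (AT5G51910, 3.32) and TCP24 (7.31). NF-Y subunit genes had 1 of 36 (2.78%), NF-YC4, and the SPL family had 0 of 18.

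Hormone genes held regions in each of the 4 groups listed. Auxin genes had 10 of 220 (4.55%) with 12 regions of CFR 2.16 to 24.6. These included YUC4, an auxin synthesis enzyme, with regions of CFR 12.2 (chr5:3612115-3612614, rank 262) and 15.3 (chr5:3611387-3611660, rank 661), and the efflux carrier PIN4 (chr2:180959-181353, rank 284, 9.03). They also included SAUR53 (AT1G19840, rank 382, 2.16, also called in p35S:LFYTERE) and DFL2, a GH3 family gene, with 9.90 and 6.71. Gibberellin genes had 3 of 41 (7.32%), with CFR values within 7.12 to 7.80. GA2OX2 (7.12) and GA2OX6 (7.35) encode enzymes that inactivate gibberellin, and GA20OX1 (7.80) encodes one that makes it. Their ranks were 1116 to 1667. In p35S:LFYTERE 0 of 3 were called, against 9.38% of all in-gene regions, so 3 regions show nothing there. Cytokinin genes had 5 of 66 (7.58%). The synthesis genes IPT5 (rank 198, 5.92) and IPT3 (rank 204, 20.7), the degradation gene CKX5 (rank 335, 4.66) and the activating enzyme gene LOG8 (5.15) ranked best. Abscisic acid genes had 3 of 57 (5.26%), all of the receptor and phosphatase module: PYL5 (1.58), HAB2 (7.53) and HAI1 (5.42 and 4.52).

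Among enzymes, cytochrome P450 genes had 16 of 239 (6.69%) with 19 regions. Their median CFR was 12.4 (range 3.39 to 52.2), and 11 of the 19 were above 10, against 31.4% of all in-gene regions. In p35S:LFYTERE 0 of 19 were called, against 9.38% of all in-gene regions, a gap too small to establish with 19 regions. After CYP81D7 the best ranks were those of CYP71B3 (rank 52, 32.1), CYP709B2 (rank 57, 6.36) and CYP83B1, an enzyme of indole glucosinolate synthesis (rank 72, 14.8). UDP-glycosyltransferase genes had 4 of 64 (6.25%), with CFR values of 5.45 to 8.48, and beta-glucosidase genes had 2 of 47 (4.26%), BGLU24 (89.2) and BGLU16 (3.95). Cell wall loosening genes, the xyloglucan endotransglucosylases and expansins, had 4 of 70 (5.71%), XTH6 (11.9), EXPB3 (9.89), XTH7 (16.6) and EXPA8 (11.8). In p35S:LFYTERE 0 of these 4 regions were called, and so few show nothing beside the 9.38% of all in-gene regions. Calcium-dependent, CBL-interacting and MAP kinase genes had 3 of 112 (2.68%), with CFR values of 1.68 to 5.20. The listed receptor kinase genes had 2 of 58 (3.45%), ER, which acts in organ growth (6.62), and PSY1R (7.27). Transporter genes had 11 of 294 (3.74%) with 13 regions of CFR 2.92 to 17.0, led by STP11 (rank 137, 6.48), TIP2;3 (rank 283, 9.16), ANTR2 (rank 495, 3.58) and PIP3 (rank 682, 2.92, also called in p35S:LFYTERE).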

How the data were processed

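ChIP-Seq of seedlings of 3 genotypes was analysed from the 2 deposited region lists, called against Col-0. The authors mapped reads, called peaks and kept regions passing in all 4 comparisons of replicates with controls, using SHORE. TAIR10 is the build in the submitters' processing notes. The deposited rank is a score (order) of the peaks, and the deposited CFR is a linear ratio that the authors computed from coverage scaled between replicates and genotypes and fused. No replicate values or read depth were used.

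Regions were assigned by midpoint to protein-coding genes, using the gene starts and ends of a RefSeq table (TAIR10.1). Its chromosome coordinates were taken to be the same as those of TAIR10, which was not checked. In 20 regions the midpoint lay in 2 overlapping genes and the shorter one was taken. Python 3.11.15, numpy 2.4.6, pandas 2.3.3, scipy 1.17.1 and matplotlib 3.10.9 were used, and assignment and intervals were tested on simulated data. No p-value was computed, because the lists hold no replicates. Named regions are the 10 best-ranked, the 10 of highest and the 10 of lowest CFR, the 10 with the best p35S:LFYTERE rank, the 5 deepest, all genes with 3 regions and the 10 best-ranked with 2, and up to 4 genes per group. Members and lists were chosen with earlier results of these data known, and symbols that fit several gene families were removed from the 23 groups after the members' names were seen. ABCB19 was kept in both the auxin and the transporter group, so its region is counted in each. Alternatives changed the assignment, the overlap rule and the part of the list used. The planned search for promoter letters needs sequence and was not run.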

Additional observations from a re-analysis of the deposited data

How the results depend on the processing

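Of 27 alternative values, 15 stayed within the interval of the reported value or, for counts, within 1.5 times. With only regions wholly inside a gene, the share in genes was 26.6% (520 regions), the median rank in genes 1042.5 against 959 for the others, the share in the outer 10% at either end 13.5%, and 27 genes had 2 or more regions. With any overlap of 1 bp, the share in genes was 57.2% (1118 regions) and the share at the ends 56.9%. These shares follow from the rule, since boundary regions are dropped or added. In the best-ranked 50% of the list, the median CFR was 7.52 in genes and 8.75 outside, 14.5% of in-gene regions and 12.9% of others were shared with p35S:LFYTERE, the median width was 438 bp in genes and 387 bp outside, the median rank 441.5 in genes and 520 outside, and 12 genes had 2 or more regions. With the best-ranked 50% of the p35S:LFYTERE list, 4.45% of in-gene regions and 4.36% of others were shared. The in-gene median CFR was below the median of the others under all 5 settings, which include the main analysis and reuse the same regions. Leaving out regions with a CFR above 300 could not move the in-gene median, as no in-gene CFR exceeded 169.7. With regions wholly inside a gene, the median of the others (7.52) fell within the in-gene interval (6.71 to 7.59). The share shared with p35S:LFYTERE was higher in genes except for regions wholly inside a gene (8.65% against 8.93%). No paired analysis was possible because the deposited lists fuse the replicates, and for the same reason no replicate could be left out. Precision is limited by the number of regions, and coverage behind each CFR was not analysed here.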
